A study of Mus musculus with 32 samples.

Results

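CD8 T cells taken from MMTV-PyMT mouse tumors at week 4 were compared with those taken at week 2, across all genes of the deposited expression table. The comparison held 6 of the 32 libraries of the series: replicates 1, 2 and 3 of week 2 and replicates 2, 3 and 4 of week 4. They were chosen by the week and the cell type in their labels, and values for them are given in that order throughout. The 3 libraries of week 3 (replicates 1, 3 and 4) entered the same model and are quoted where they help to place a change in time.

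MMTV-PyMT is a breast cancer model in which the mouse mammary tumor virus promoter drives an oncogene of polyoma virus in mammary epithelium. The study set tumors of 3 stages side by side, with week 2 as the early and week 4 as the late stage. All 6 libraries carry the same labels apart from the week: tumor as the tissue, CD8 T cells as the cell type and total RNA extracted with TRIZOL, made into stranded mRNA libraries. No treatment, strain, sex or age was given for these groups, nor whether the tumors arose in transgenic mice or from implanted cells, nor how the CD8 T cells were isolated. The labels do not say that replicates came from separate animals, so p-values measure the spread between these libraries, which may be technical in part.

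CD8 T cells recognise peptides on MHC class I with their T cell receptor and kill through granzymes, perforin and death ligands. A naive or stem-like CD8 T cell holds the transcription factors TCF1 (Tcf7) and LEF1 and the homing molecules that lead it through lymph nodes. Repeated stimulation in a tumor is known to drive such cells toward an effector or exhausted state, with inhibitory receptors such as PD-1 (Pdcd1), and tissue residency is known to go with the loss of the exit receptor S1pr1.

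Values are TPM, in which read numbers are scaled for gene length and then so that each library has the same total. A log2 difference is the mean log2(TPM + 1) of week 4 minus that of week 2 with its standard error (SE). A gene is said to have risen or fallen where its p from limma, adjusted by the Benjamini-Hochberg method over all tested genes, was under 0.05. In bulk libraries such as these, fewer cells of a type and less RNA per cell cannot be told apart.

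Of 13350 genes with at least 1 TPM in at least 3 libraries, 1377 rose (10.3%) and 958 fell (7.18%) from week 2 to week 4. Among them 974 changed at least 2-fold, 745 upward and 229 downward, while the median over all tested genes was -0.01. Counts of each list below are to be read beside the shares of 10.3% and 7.18%. The lists were chosen with earlier results of these data known, so a larger share in a list is a description and no test. The balance moved with scaling: 1315 rose and 1409 fell after quantile normalization. When each of the 6 libraries was left out in turn, 571 genes rose (4.28%) and 203 fell (1.52%) in every one of the 6 fits. Fewer genes passed between neighbouring weeks. From week 2 to week 3 only 6 genes rose (0.0449%) and 0 fell in limma (1825 at an unadjusted p under 0.05), and from week 3 to week 4 there were 184 rises (1.38%) and 172 falls (1.29%).

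**Figure D1:**
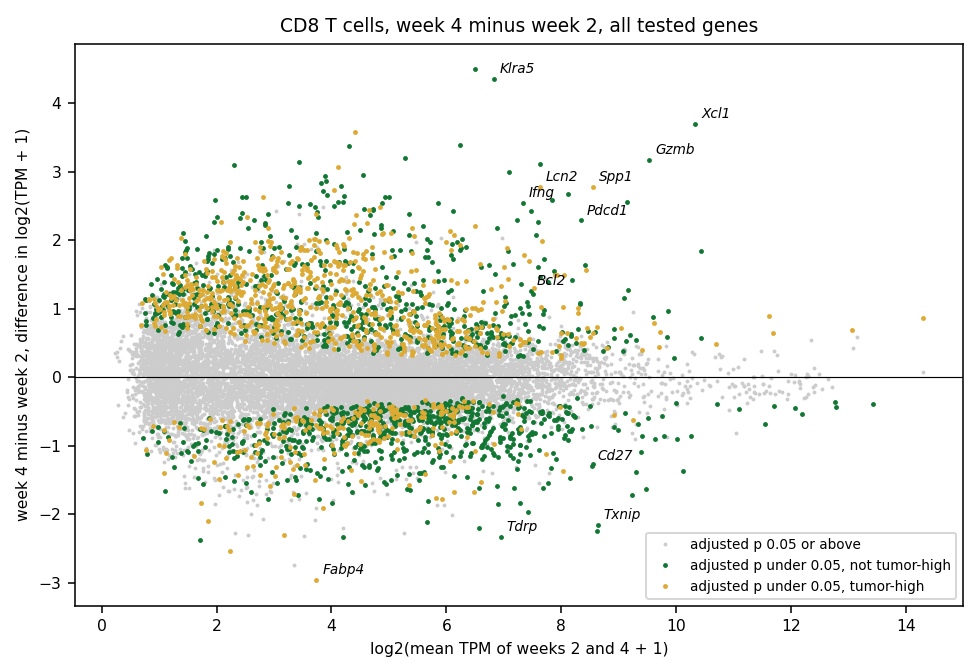
Log2 difference between week 4 and week 2 (y axis) against log2 of the mean TPM + 1 (x axis) for every tested gene in CD8 T cells. Colored points are the 2335 genes past the threshold, in gold where the level was higher in the tumor cell table, and 12 genes are named.

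The libraries held 11829 to 12821 genes at 1 TPM or more, and the share of TPM in genes of the mitochondrial genome was 3.56% to 4.67% at week 2 and 5.95% to 7.09% at week 4. Read totals are not in the table. The steps between low values put the depth of the 6 libraries at 0.670 to 1 of the deepest one, a rough estimate. The lineage label held: Cd8a, the alpha chain of the CD8 coreceptor, was at 787, 700.2 and 696 TPM at week 2 and 1173, 1128 and 996 at week 4. Cd8b1, its beta chain, was at 820.2, 764 and 767 and 741, 577 and 679, and Cd4 was at 2.04, 10.9 and 3.95 and 5.57, 0.584 and 4.64.

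Epithelial genes were also detected in these libraries, at uneven levels. Epithelial marker genes, read as a ratio to the tumor cell libraries of the same week, stood at 2.84%, 4.05% and 7.69% at week 2 and at 5.70%, 3.27% and 3.80% at week 4 (median over 19 genes). The summed level of 24 epithelial genes was 187 to 443 TPM at week 2 and 587 to 878 at week 4, with 4 of 23 tested members risen (1 without week 2 replicate 1 or week 4 replicate 2, 2 without week 2 replicate 2 or week 4 replicate 3 or 4 and 12 without week 2 replicate 3) and 1 fallen. Epcam, an epithelial adhesion protein, was at 12.6, 16.1 and 29.97 TPM and then 38.5, 37.9 and 29.5 (log2 difference 0.90, adjusted p = 0.0689). A gene was therefore marked as tumor-high where its mean TPM over weeks 2 and 4 was higher in the tumor cell table, as 6525 of the tested genes were. Of marked genes 11.3% rose and 3.69% fell, and of the others 9.33% rose and 10.5% fell. As a second check, the ratio of each library times the mean tumor profile of its week was subtracted, after which 1527 genes rose and 1043 fell.

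Inhibitory receptors, which dampen T cell activation, rose in 10 of 18 tested members and fell in 1, with a median of 1.18 against -0.01 over all genes. With 1 library left out 8 to 11 rose. None of the 18 was tumor-high. Pdcd1, which encodes PD-1, had 118, 70.9 and 151 TPM at week 2 and 611, 542 and 457 at week 4 (log2 difference 2.29, SE 0.28, adjusted p = 0.00248; GRCm38 chromosome 1, 94038305 to 94052553). The lowest week 4 library stood well above the highest week 2 library, and the week 3 libraries at 171, 164 and 106 lay near those of week 2. Tigit, a receptor that competes for ligand with the activating receptor CD226, had 103, 78.7 and 101 TPM at week 2 and 287, 326 and 258 at week 4 (log2 difference 1.62, SE 0.18, adjusted p = 0.00174; GRCm38 chromosome 16, 43626137 to 43665125). Its groups did not overlap either; every week 4 library lay above every week 2 library in 20.6% of all tested genes.

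Cd200r1, the receptor for the dampening ligand CD200, had 6.3, 6.07 and 10.4 TPM at week 2 and 60.04, 53.4 and 40.9 at week 4 (log2 difference 2.63, SE 0.24, adjusted p = 0.00121). Pvrig, a receptor of the same ligand network as Tigit, had 4.09, 3.24 and 5.61 TPM at week 2 and 31.8, 38.3 and 21.7 at week 4 (log2 difference 2.56, SE 0.27, adjusted p = 0.00158). Cd244, which can activate or inhibit, had 3.43, 2.67 and 7.19 TPM at week 2 and 40.6, 56 and 25.2 at week 4 (log2 difference 2.96, SE 0.40, adjusted p = 0.00348). These 5 were among the 8 members that rose in every fit that left out 1 library. Entpd1, the ectoenzyme CD39 that starts the path from extracellular ATP to adenosine, had 9.19, 11.7 and 17.1 TPM at week 2 and 36.9, 41.8 and 22.1 at week 4 (log2 difference 1.33, adjusted p = 0.0162), with an adjusted p of 0.0561 to 0.0591 without week 2 replicate 1 or 2 or week 4 replicate 2 or 3.

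Other well-known inhibitory receptors did not pass. Havcr2, which encodes TIM-3, had 8.46, 12.6 and 21.1 TPM at week 2 and 23.4, 13.1 and 12.1 at week 4 (log2 difference 0.22, adjusted p = 0.678), and the groups overlapped. Ctla4 had 284, 169.7 and 250.4 TPM at week 2 and 285, 279 and 315 at week 4 (log2 difference 0.35, adjusted p = 0.214). Lag3, a receptor for MHC class II, had 38.6, 25.6 and 23.4 TPM at week 2 and 71.9, 69.7 and 41.9 at week 4: no overlap, but log2 difference 1.03, adjusted p = 0.0689, or 0.0149 with replicate number as a block. Vsir, which encodes VISTA, fell from 84.5, 96.7 and 62 to 32.5, 53.3 and 49.8 TPM (log2 difference -0.84, adjusted p = 0.0277), with an adjusted p of 0.0714 to 0.0991 without week 2 replicate 1 or 2 or week 4 replicate 2.

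**Figure D2:**
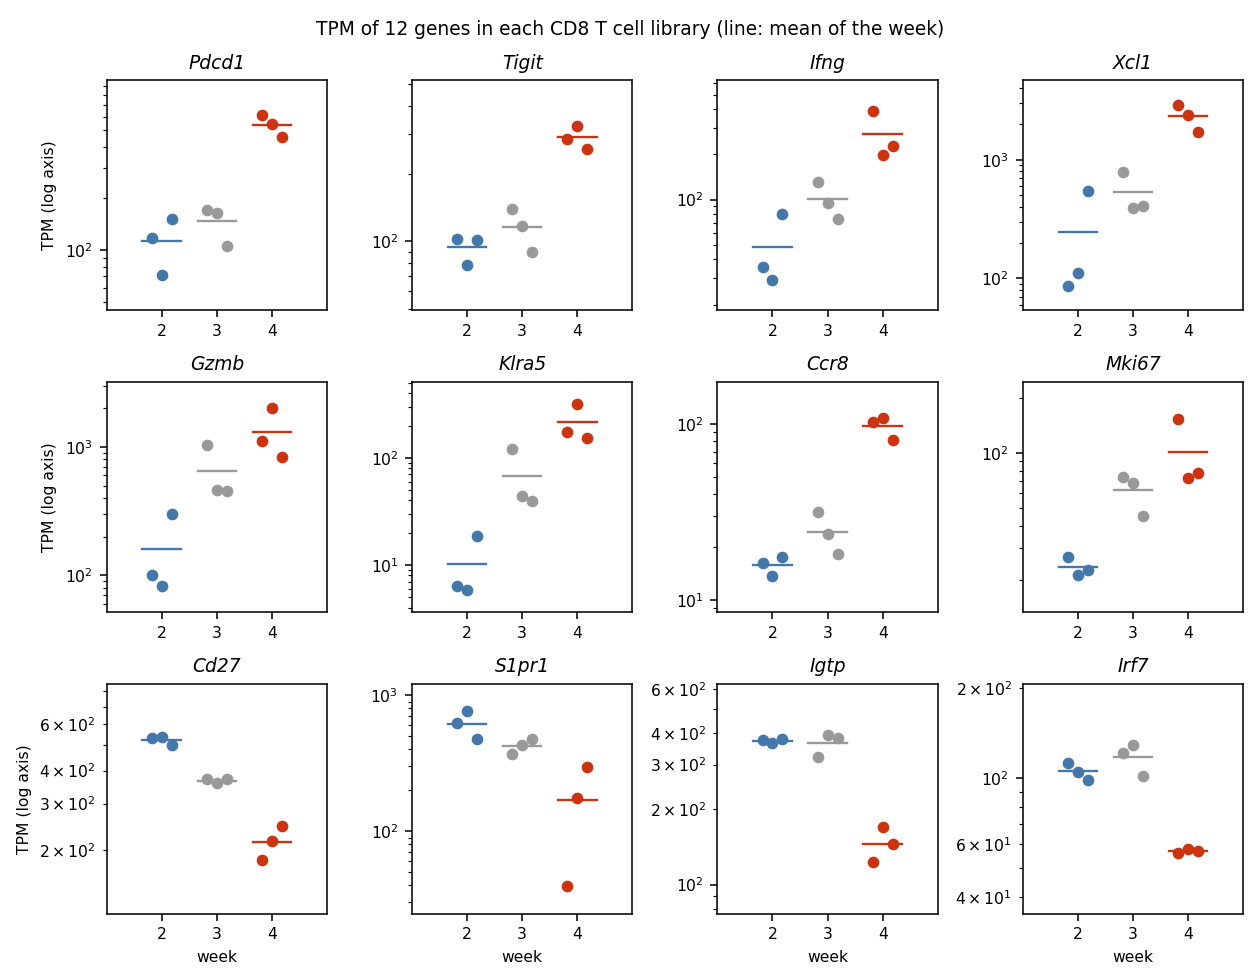
TPM (log axis) of 12 genes in each CD8 T cell library by week, with the week mean as a line. The week 3 means of Pdcd1, Tigit and Ccr8 lie near week 2, those of Gzmb and Mki67 lie between, and Igtp and Irf7 are lower at week 4 alone.

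Transcription factors of activation and exhaustion rose in 9 of 21 tested members and fell in 0 (median 0.56). Of these, 6 rose in every fit that left out 1 library. Bhlhe40, a repressor induced by T cell receptor signals, had 74.3, 78.4 and 89.2 TPM at week 2 and 262, 249 and 283 at week 4 (log2 difference 1.71, SE 0.18, adjusted p = 0.00158). Ikzf2, which encodes Helios, had 17.5, 14.5 and 18.9 TPM at week 2 and 53, 84 and 57.6 at week 4 (log2 difference 1.85, SE 0.26, adjusted p = 0.00398). Tbx21, which encodes T-bet, the driver of the type 1 effector program, had 31.2, 25.9 and 27.6 TPM at week 2 and 82.4, 104 and 70.3 at week 4 (log2 difference 1.55, SE 0.25, adjusted p = 0.00594). In each of the 3 genes every week 4 library lay above every week 2 library. Tox, the factor that installs the exhausted state, had 31.3, 34.1 and 21.8 TPM at week 2 and 52.4, 68.7 and 56.3 at week 4 (log2 difference 1.01, SE 0.22, adjusted p = 0.0157), with an adjusted p of 0.0563 without week 4 replicate 3. Irf8, a factor induced in activated CD8 T cells and high in myeloid cells, had 14.4, 43.9 and 41 TPM at week 2 and 141, 95.8 and 76.2 at week 4 (log2 difference 1.73, adjusted p = 0.017), with an adjusted p of 0.0594 without week 4 replicate 2. Eomes, the relative of T-bet, had 34.2, 29.3 and 24.8 TPM at week 2 and 33, 16.8 and 19.9 at week 4 with overlap (log2 difference -0.38, adjusted p = 0.285).

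Genes of the stem-like, naive and memory state fell in 13 of 24 tested members and rose in 2 (median -1.07). Tcf7 had 1204, 1296 and 636 TPM at week 2 and 133, 436 and 572 at week 4 (log2 difference -1.63, SE 0.48, adjusted p = 0.0471; GRCm38 chromosome 11, 52246527 to 52283383). Lef1, its partner, had 259, 321 and 190.1 TPM at week 2 and 20.9, 75.1 and 160.1 at week 4 (log2 difference -1.97, SE 0.58, adjusted p = 0.0458). In both the week 4 libraries lay below those of week 2 and differed widely among themselves, with replicate 2 lowest and replicate 4 highest. Every week 4 library lay below every week 2 library in 16.5% of all tested genes.

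S1pr1, the receptor by which T cells leave tissues, had 621, 762 and 477 TPM at week 2 and 39.6, 175 and 297 at week 4 (log2 difference -2.24, SE 0.59, adjusted p = 0.0312; GRCm38 chromosome 3, 115710433 to 115715055). Klf2, the factor that maintains S1pr1, had 832, 1137 and 694 TPM at week 2 and 105, 356 and 486 at week 4 (log2 difference -1.72, SE 0.47, adjusted p = 0.0357). Ccr7, the chemokine receptor for lymph node entry, had 1583, 1803 and 1268 TPM at week 2 and 309.6, 638 and 1047 at week 4 (log2 difference -1.37, SE 0.36, adjusted p = 0.032). Slamf6, a surface marker of stem-like exhausted cells, had 88.6, 80.3 and 62.4 TPM at week 2 and 22.5, 34 and 56.4 at week 4 (log2 difference -1.09, adjusted p = 0.0283). Il7r, the receptor for the survival cytokine interleukin 7, had 530.3, 469 and 357 TPM at week 2 and 115, 289 and 585 at week 4 (log2 difference -0.73, adjusted p = 0.291). The same order within week 4 was seen in each of these 5 genes.

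The fall of this list rested on few libraries. None of its falls passed without week 2 replicate 1, week 2 replicate 2 or week 4 replicate 3, 4 passed without week 4 replicate 2, and 15 and 18 passed without week 2 replicate 3 and week 4 replicate 4. For Tcf7 the adjusted p was 0.069 to 0.142 without week 2 replicate 1 or 2 or week 4 replicate 2 or 3. For S1pr1 it was 0.0573 to 0.1 without week 2 replicate 1 or 2 or week 4 replicate 3. Among the members that fell, 0 passed in all 6 fits. The list also holds 2 members that rose in every fit: Bcl2, an inhibitor of apoptosis, and the chemokine gene Xcl1, which stands in the effector list as well. Bcl2 had 117, 97.8 and 94.4 TPM at week 2 and 262, 264 and 219 at week 4 (log2 difference 1.26, SE 0.11, adjusted p = 0.00121).

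Other falls lay outside the list. Cd27, a costimulatory receptor of naive and memory T cells, had 534, 535 and 501 TPM at week 2 and 183, 216 and 246 at week 4 (log2 difference -1.29, SE 0.11, adjusted p = 0.00121; GRCm38 chromosome 6, 125232620 to 125237136), with week 3 in between at 371, 359 and 370.5. Txnip, a restraint on glucose uptake, had 625, 772 and 525 TPM at week 2 and 89.96, 134 and 233 at week 4 (log2 difference -2.16, SE 0.29, adjusted p = 0.0035). Slfn1, a gene of quiescent T cells, had 262, 248 and 212 TPM at week 2 and 52.6, 67.1 and 82 at week 4 (log2 difference -1.84, SE 0.17, adjusted p = 0.00121). Tdrp (log2 -2.33), Fam101b (-2.20), Tbxa2r, the thromboxane receptor (-1.83), and Xkrx (-1.78) fell as well. All 7 passed with any 1 library left out, and none was tumor-high. Klf3, a relative of Klf2, had log2 -1.85 with an adjusted p of 0.0511 without week 2 replicate 2, and Dtx1, a regulator of Notch, had -2.11 with an adjusted p of 0.122 without week 2 replicate 1 and 0.146 without week 2 replicate 2.

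Effector cytokines and chemokines rose in 12 of 18 tested members and fell in 0, with a median of 1.80. Xcl1, the chemokine that draws cross-presenting dendritic cells, had 86, 112 and 542 TPM at week 2 and 2914, 2364 and 1710.0 at week 4 (log2 difference 3.70, SE 0.61, adjusted p = 0.00612; GRCm38 chromosome 1, 164931644 to 164935522). Ifng, interferon gamma, had 35.3, 29.2 and 79.9 TPM at week 2 and 389, 197 and 228 at week 4 (log2 difference 2.54, SE 0.39, adjusted p = 0.00504; GRCm38 chromosome 10, 118441046 to 118445894). Csf2, which encodes GM-CSF, had 1.49, 1.72 and 5.43 TPM at week 2 and 28.6, 19.4 and 26.7 at week 4 (log2 difference 2.86, SE 0.37, adjusted p = 0.00294). Within week 2, replicate 3 was the highest in all 3 genes, and it was still below every week 4 library.

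Ccl3 and Ccl4, chemokines of activated T cells whose gene models overlap, both rose. Ccl3 had 3.23, 7.71 and 12.2 TPM at week 2 and 94.9, 35.4 and 31.9 at week 4. Ccl4 had 24.6, 22.1 and 51.4 TPM at week 2 and 203, 84.2 and 93.2 at week 4 (log2 differences 2.63 and 1.91, adjusted p = 0.00925 and 0.0105). Tnf had 12.8, 14.5 and 20.3 TPM at week 2 and 78.5, 55.5 and 73.5 at week 4 (log2 difference 2.07, SE 0.21, adjusted p = 0.00121). It was one of 3 tumor-high members, with a mean level in tumor cells 5.79 times that in these libraries. After the tumor share was subtracted its log2 difference was 1.98 (adjusted p = 0.00223). The cytokine gene Il17a of type 17 T cells had 1.45, 0.545 and 8.01 TPM at week 2 and 23, 47.9 and 32.1 at week 4 (log2 difference 3.38, SE 0.59, adjusted p = 0.0076). Ccl5, a chemokine that memory CD8 T cells hold ready, overlapped between weeks with 422, 294 and 867 TPM at week 2 and 381, 492 and 293 at week 4 (log2 difference -0.32, adjusted p = 0.534). Of the 12 risen members, 10 passed in every fit that left out 1 library.

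Genes of cytotoxic granules and death ligands rose in 8 of 19 tested members and fell in 0 (median 0.67), 4 of them in every such fit. Gzmb, the granzyme that activates caspases, had 99.96, 83 and 301 TPM at week 2 and 1118, 2000.0 and 832 at week 4 (log2 difference 3.17, SE 0.52, adjusted p = 0.00633; GRCm38 chromosome 14, 56258836 to 56262334), with 1034, 459.9 and 454 at week 3. Tnfsf10, which encodes the death ligand TRAIL, had 20.3, 16.6 and 25.2 TPM at week 2 and 129, 136 and 84 at week 4 (log2 difference 2.42, SE 0.24, adjusted p = 0.00121). Fasl, the ligand of the death receptor FAS, had 43.2, 30.4 and 86 TPM at week 2 and 205, 169.6 and 104 at week 4 (log2 difference 1.65, adjusted p = 0.0163), with an adjusted p of 0.0532 to 0.0577 without week 2 replicate 1 or 2 or week 4 replicate 2 or 3. Prf1, the perforin through which granzymes enter a target, overlapped between weeks, with 64.8, 68.4 and 39.3 TPM at week 2 and 28.5, 37.3 and 44.4 at week 4 (log2 difference -0.62, adjusted p = 0.087). Gzmk, a granzyme of early memory cells, overlapped between weeks (log2 difference -0.75, adjusted p = 0.61).

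Gzma had 17.8, 15.1 and 94.5 TPM at week 2 and 192, 730.3 and 134 at week 4 (log2 difference 3.12, SE 0.77, adjusted p = 0.0253), with an adjusted p of 0.0551 to 0.0901 without week 2 replicate 1 or 2 or week 4 replicate 2 or 3. Granzymes share sequence, and counting could split reads between near-identical members. The count of 8 fell to 4 without week 2 replicate 1 or 2 and to 5 without week 4 replicate 2 or 3.

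NK lectin-like receptors, a family of activating and inhibitory receptors that CD8 T cells can gain, rose in 10 of 15 tested members and fell in 0 (median 1.40). Klra5, a Ly49 receptor, had 6.38, 5.83 and 18.7 TPM at week 2 and 175, 318 and 152 at week 4 (log2 difference 4.36, SE 0.52, adjusted p = 0.00244; GRCm38 chromosome 6, 129898988 to 129913237), with 121, 43.6 and 39.9 at week 3. Klrc1, the inhibitory receptor NKG2A, had 50.04, 25.4 and 50.2 TPM at week 2 and 264, 165 and 143 at week 4 (log2 difference 2.17, SE 0.29, adjusted p = 0.00319). Klrd1, its partner CD94, had 231, 161 and 219 TPM at week 2 and 479, 453 and 365 at week 4 (log2 difference 1.09, SE 0.16, adjusted p = 0.00481). Klrk1, the activating receptor NKG2D, had 41.9, 29.2 and 40.8 TPM at week 2 and 112, 88.5 and 71.1 at week 4 (log2 difference 1.25, SE 0.19, adjusted p = 0.00527). Klri2 had 7.92, 3.31 and 8.45 TPM at week 2 and 46.5, 38.8 and 31.1 at week 4 (log2 difference 2.46, SE 0.32, adjusted p = 0.00319). No week 4 library overlapped week 2 in any of these 5 genes, and 8 of the 10 passed with any 1 library left out. Members of the Klra family are near-identical in stretches, so the share of each is uncertain.

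NK cell markers moved in the same libraries. Of 10 tested markers 5 rose (3 without week 2 replicate 2 or week 4 replicate 2 or 3) and 0 fell, and the summed level of 12 was 635 to 1015 TPM at week 2 and 1338 to 2195 at week 4, with no member at 0 in all 6 libraries. The 5 were Tyrobp, Fcer1g, Klri2, Nkg7 and Cd244, which NK cells and CD8 T cells can both express, and Klri2 and Cd244 also stand in the lists above. Fcer1g, a signalling adaptor, had 10.5, 23.3 and 75.6 TPM at week 2 and 218, 333 and 147 at week 4 (log2 difference 3.00, SE 0.60, adjusted p = 0.012). Tyrobp, another adaptor, had 12.8, 69.5 and 130.0 TPM at week 2 and 311, 369 and 169 at week 4 (log2 difference 2.42, adjusted p = 0.0395), with an adjusted p of 0.0764 to 0.115 without week 2 replicate 2 or week 4 replicate 2 or 3. Of the NK receptor genes, Ncr1, which encodes NKp46, had 1.5, 2.96 and 5.4 TPM at week 2 and 8.99, 11.2 and 5.04 at week 4 (log2 difference 1.18, adjusted p = 0.0539). Klrb1c, which encodes NK1.1, had 6.03, 6.6 and 6.27 TPM at week 2 and 7.68, 11.2 and 7.3 at week 4 (log2 difference 0.39, adjusted p = 0.211). Eomes, given above, is also on this list and did not pass. Macrophage and monocyte genes summed to 568 to 1162 TPM at week 2 and 1062 to 1567 at week 4. The parts of NK cells and of macrophages and monocytes in these rises were not tested.

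Markers of unconventional T cells rose too, in 3 of 6 tested members (5 without week 2 replicate 3 and 2 without week 2 replicate 1 or 2), from a summed 26.6 to 62.8 TPM at week 2 to 89.5 to 166.8 at week 4. Zbtb16, the factor PLZF of innate-like T cells, had 0.452, 0.508 and 0.923 TPM at week 2 and 2.5, 5.28 and 3.72 at week 4 (log2 difference 1.54, SE 0.28, adjusted p = 0.00803). Il17a, above, was also among the 3 that rose. Of the 6 tested members 3 were tumor-high, 1 of which rose. With the tumor share subtracted 3 members rose and 0 fell. The mean summed level of the list in tumor cells was higher than here, at 213.5 TPM at week 2 and 229.2 at week 4. The gamma and delta receptor constant genes were not analysed here, and the part of such cells in the rise of Il17a was not tested. In the list for CD4 and regulatory T cells 5 of 12 rose (3 without week 2 replicate 1 or week 4 replicate 3), Il2ra and Ikzf2 among them. Cd4 (log2 difference -0.54, adjusted p = 0.587) did not pass. Foxp3, the regulatory factor, had 11.3, 11.4 and 5.86 TPM at week 2 and 7.24, 6.39 and 3.81 at week 4 (log2 difference -0.62, adjusted p = 0.148).

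**Figure D3:**
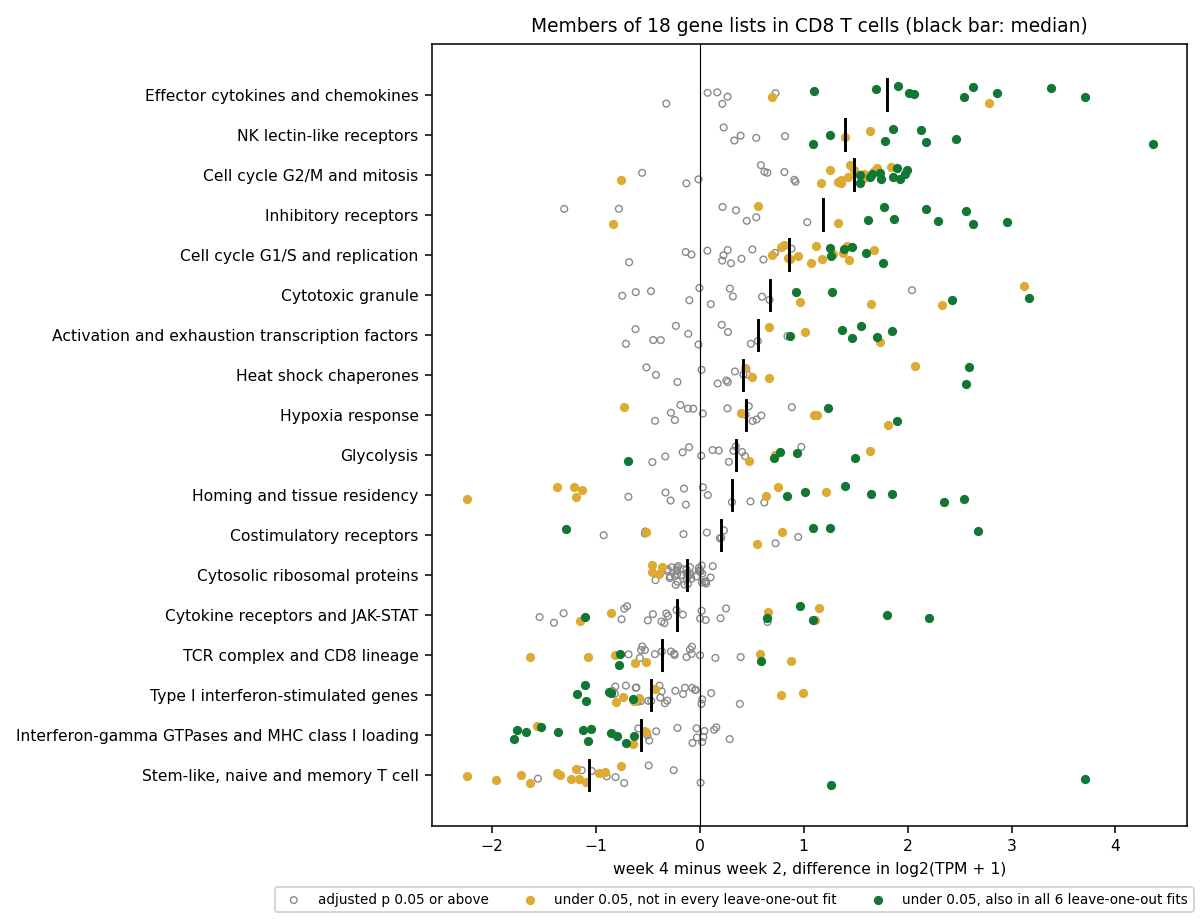
Log2 difference between week 4 and week 2 for the tested members of 18 gene lists, 1 row for each list, roughly in order of its median (black bar). Gold and green points passed the threshold, green ones also in all 6 fits that left out 1 library; green is frequent among effector, NK lectin-like and inhibitory genes, and the lower members of the stem-like list are gold.

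Costimulatory receptors split, with 5 of 17 tested members risen and 2 fallen. The rises numbered 3 without week 2 replicate 1 or 2 or week 4 replicate 3, and the falls 1 without week 2 replicate 1 or 2 or week 4 replicate 2. Tnfrsf9, which encodes 4-1BB, a receptor induced by recent antigen contact, had 54.2, 48.8 and 143 TPM at week 2 and 498, 499 and 414 at week 4 (log2 difference 2.68, SE 0.39, adjusted p = 0.00401; GRCm38 chromosome 4, 150920155 to 150946104). Cd226, the activating counterpart of Tigit, had 68, 63.6 and 68 TPM at week 2 and 87.1, 122 and 88.7 at week 4 (log2 difference 0.55, adjusted p = 0.0285), with an adjusted p of 0.0715 to 0.096 without week 2 replicate 1 or 2 or week 4 replicate 3. Icos had 282, 237 and 212 TPM at week 2 and 138, 188 and 182 at week 4 (log2 difference -0.52, adjusted p = 0.0688). The rise of Tnfrsf9 and the fall of Cd27 in the same libraries, both members of the TNF receptor family, were the furthest apart within the list.

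Homing and tissue residency genes rose in 10 of 25 tested members and fell in 5. Of the rises 7 passed in every fit that left out 1 library, whereas the count of falls was 0 without week 2 replicate 1 or 2 and 2 without week 4 replicate 2 or 3. Ccr8, a chemokine receptor of skin and tumor T cells, had 16.4, 13.7 and 17.7 TPM at week 2 and 103, 109 and 82 at week 4 (log2 difference 2.54, SE 0.20, adjusted p = 0.00121; GRCm38 chromosome 9, 120092133 to 120094906). Itga1, the collagen-binding integrin CD49a of resident cells, had 2.56, 3.45 and 3.94 TPM at week 2 and 19.4, 31.3 and 14.6 at week 4 (log2 difference 2.35, SE 0.28, adjusted p = 0.00244). Rgs1, a brake on chemokine receptor signals, had 532, 432 and 908 TPM at week 2 and 2268, 2236 and 1935 at week 4 (log2 difference 1.85, SE 0.26, adjusted p = 0.00361). Cxcr6, which holds resident CD8 T cells near its ligand CXCL16, had 121, 80.1 and 162 TPM at week 2 and 371, 329.8 and 240.2 at week 4 (log2 difference 1.40, SE 0.25, adjusted p = 0.00759). In each of these 4 genes every week 4 library lay above every week 2 library.

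Itgae, the integrin CD103, had 118, 107 and 87.5 TPM at week 2 and 216, 394 and 165 at week 4 (log2 difference 1.22, adjusted p = 0.0359), with an adjusted p of 0.0681 to 0.0925 without week 2 replicate 1, 2 or 3 or week 4 replicate 2 or 3. Cd69, which blocks S1pr1 at the surface, had 225, 185 and 263 TPM at week 2 and 286, 336 and 427 at week 4 (log2 difference 0.63, adjusted p = 0.049), with an adjusted p of 0.101 to 0.158 without week 2 replicate 1 or 2 or week 4 replicate 3 or 4. Cx3cr1, a receptor of circulating effector cells rather than resident ones, had 4.78, 4.42 and 3.76 TPM at week 2 and 18.2, 19.1 and 11 at week 4 (log2 difference 1.65, SE 0.28, adjusted p = 0.00715). The 5 members that fell include S1pr1 and Ccr7. They also include Ccr9, the gut homing receptor, with 65.4, 79.3 and 72.9 TPM at week 2 and 36.3, 16.3 and 48.8 at week 4 (log2 difference -1.21, adjusted p = 0.0359; adjusted p = 0.0561 to 0.107 without week 2 replicate 1, 2 or 3 or week 4 replicate 2).

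Receptors for interleukins changed in both directions, with 8 of 31 tested members of the cytokine receptor and JAK-STAT list risen and 3 fallen. Il12rb2, the inducible chain of the interleukin 12 receptor, had 10.01, 9.85 and 11.7 TPM at week 2 and 31.7, 50.2 and 37 at week 4 (log2 difference 1.80, SE 0.23, adjusted p = 0.00288). Il2ra, which encodes CD25, had 24.9, 26.6 and 31.3 TPM at week 2 and 66.8, 60.4 and 40.5 at week 4 (log2 difference 0.97, SE 0.19, adjusted p = 0.0108). Cish, a feedback inhibitor of cytokine and T cell receptor signals, had 13.4, 14.4 and 21.2 TPM at week 2 and 75.4, 87.3 and 70.4 at week 4 (log2 difference 2.21, SE 0.24, adjusted p = 0.00174). All 3 passed with any library left out, while the count of 8 rises was 5 without week 4 replicate 3, and that of 3 falls was 1 without week 2 replicate 1 or 2, 6 without week 2 replicate 3 and 9 without week 4 replicate 4. Il2rb had 385, 329.9 and 294 TPM at week 2 and 681, 944 and 642 at week 4 (log2 difference 1.15, adjusted p = 0.015; adjusted p = 0.0512 without week 2 replicate 2 and 0.0518 without week 4 replicate 3). Stat5a, which relays interleukin 2 and 7, had 124, 136 and 86 TPM at week 2 and 35.6, 51.8 and 69.2 at week 4 (log2 difference -1.15, adjusted p = 0.0134; adjusted p = 0.0503 without week 2 replicate 1 and 0.0533 without week 2 replicate 2).

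Feedback genes of T cell receptor signalling and NFAT targets rose in 8 of 26 tested members and fell in 2. Of the rises 7 passed in every fit that left out 1 library, and the count of falls was 0 without week 2 replicate 1 or 2 or week 4 replicate 3, 4 without week 2 replicate 3 and 1 without week 4 replicate 2. Rgs16, a brake on G protein signals, had 152, 113 and 218 TPM at week 2 and 497, 384 and 384 at week 4 (log2 difference 1.42, SE 0.26, adjusted p = 0.00831). Spry2, an inhibitor of the RAS pathway, had 6.22, 12.2 and 18 TPM at week 2 and 57.4, 51 and 46.4 at week 4 (log2 difference 2.10, SE 0.32, adjusted p = 0.00484). It was tumor-high at 6.45 times the level here, and its log2 difference was 3.23 after the tumor share was subtracted (adjusted p = 0.00393). Dgka, a diacylglycerol kinase tied to anergy, had 907, 1000.0 and 726 TPM at week 2 and 162, 363 and 627 at week 4 (log2 difference -1.38, adjusted p = 0.0399; adjusted p = 0.0501 to 0.118 without week 2 replicate 1 or 2 or week 4 replicate 2 or 3). Of 23 immediate early and AP-1 genes 3 rose and 1 fell; 1 rose without week 2 replicate 1. Jun had 79.3, 139 and 89.7 TPM at week 2 and 196, 193 and 399 at week 4 (log2 difference 1.30, adjusted p = 0.0246; adjusted p = 0.0854 without week 2 replicate 1). Fos overlapped with 431, 505 and 306 TPM at week 2 and 247, 349 and 427 at week 4 (log2 difference -0.28, adjusted p = 0.458).

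Of 27 tested genes of the T cell receptor complex and CD8 lineage 3 rose and 7 fell, with a median of -0.36. The count of falls was 2 without week 2 replicate 1 or 2, 12 without week 2 replicate 3 or week 4 replicate 4, 3 without week 4 replicate 2 and 4 without week 4 replicate 3, and 1 gene rose without week 2 replicate 2. Cd8a rose slightly (log2 difference 0.59, SE 0.11, adjusted p = 0.01), while Cd8b1 was at -0.24 (adjusted p = 0.127). Cd3e, a signalling chain, had 801, 866 and 665 TPM at week 2 and 469, 718 and 642 at week 4 (log2 difference -0.36, adjusted p = 0.192). Cd5, which tunes receptor signals, had 281, 260.2 and 174 TPM at week 2 and 127, 116 and 158 at week 4 (log2 difference -0.81, adjusted p = 0.0232; adjusted p = 0.0702 to 0.0842 without week 2 replicate 1 or 2 or week 4 replicate 2 or 3). The alpha and beta chain gene segments were not analysed here.

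Against the rise of Ifng, genes that interferon gamma is known to induce fell. In the list of interferon gamma GTPases and MHC class I loading, 16 of 30 tested members fell and 0 rose, with a median of -0.57, and 12 of the 16 passed with any 1 library left out. The largest falls were in GTPases, which attack the vacuoles of intracellular pathogens. Igtp had 376, 366 and 378 TPM at week 2 and 122, 169 and 145 at week 4 (log2 difference -1.36, SE 0.13, adjusted p = 0.00121; GRCm38 chromosome 11, 58199556 to 58207592), with 322, 393 and 383 at week 3. Irgm2 had 113, 113 and 89.3 TPM at week 2 and 20.9, 45.7 and 34.3 at week 4 (log2 difference -1.67, SE 0.24, adjusted p = 0.00401). Gbp2 had 135, 149.7 and 140.1 TPM at week 2 and 52.4, 61.2 and 35.7 at week 4 (log2 difference -1.52, SE 0.22, adjusted p = 0.00386; GRCm38 chromosome 3, 142620663 to 142638008).

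Tgtp1 and Tgtp2, near-identical neighbours on chromosome 11 whose reads cannot be parted with certainty, had similar levels. Tgtp1 had 88.8, 94.8 and 93.1 TPM at week 2 and 18.2, 38.3 and 25.3 at week 4. Tgtp2 had 86.4, 85.6 and 83.5 TPM at week 2 and 18, 35.3 and 22.8 at week 4 (log2 differences -1.78 and -1.76, adjusted p = 0.00253 and 0.00244). The list also holds genes of class I loading. B2m, the shared light chain of class I, had 6277, 5878 and 7224 TPM at week 2 and 6929, 6214 and 5801 at week 4 (log2 difference -0.03, adjusted p = 0.874). Psmb9, an immunoproteasome subunit, had 199, 209 and 226 TPM at week 2 and 280.2, 237 and 197 at week 4 (log2 difference 0.16, adjusted p = 0.43). Tap1, the peptide transporter, had 261, 302 and 219 TPM at week 2 and 160.1, 204 and 179.6 at week 4 (log2 difference -0.52, adjusted p = 0.046), with an adjusted p of 0.0594 to 0.152 without week 2 replicate 1 or 2 or week 4 replicate 2, 3 or 4. Irf1, the factor that interferon gamma induces directly, overlapped with 322, 326 and 329.8 TPM at week 2 and 171, 202 and 363 at week 4 (log2 difference -0.49, adjusted p = 0.179).

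The promoters of Tgtp1, Tgtp2, Irgm2 and Gbp2, 4 of the 5 largest falls in the list, are shown because each holds the core of the interferon-stimulated response element, GAAA followed after any 2 bases by GAAA, which is printed in capitals on either strand. Sequences are from RefSeq on GRCm38.p6, read 5′ to 3′ along the gene and ending before its start. They cover chr11:48992269-48992368 (minus strand), chr11:49064228-49064327 (minus strand), chr11:58214868-58214967 (plus strand) and chr3:142620559-142620658 (plus strand), in this order.
Tgtp1: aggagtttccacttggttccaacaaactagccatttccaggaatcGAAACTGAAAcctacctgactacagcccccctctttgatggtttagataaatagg
Tgtp2: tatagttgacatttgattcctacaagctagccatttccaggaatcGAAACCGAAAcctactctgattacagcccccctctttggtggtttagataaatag
Irgm2: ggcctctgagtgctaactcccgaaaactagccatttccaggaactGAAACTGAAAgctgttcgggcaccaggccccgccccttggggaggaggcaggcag
Gbp2: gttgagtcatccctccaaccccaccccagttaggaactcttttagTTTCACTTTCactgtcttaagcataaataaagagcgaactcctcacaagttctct
In the window from 250 bases before to 50 after the gene start, searched on both strands, this motif was present in 9 of 11 fallen members of the list with a promoter entry (81.8%) and in 3 of 6 fallen type I interferon-stimulated genes (50%). It was present in 3.44% of all 32851 promoters of the table and in 3.89% of the 9749 tested genes with an entry. The lists were chosen as interferon-induced genes, for which a high share could be foreseen, so these shares do not bear on the fall. The share in members that did not fall is not given here. A match is a string of letters and not a measured binding site.

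Type I interferon-stimulated genes, the antiviral response, fell in 11 of 39 tested members and rose in 2 (median -0.47), with 6 falls and 0 rises in every fit that left out 1 library. Irf7, an amplifier of type I interferon, had 112, 105 and 98.9 TPM at week 2 and 56.2, 58 and 57.2 at week 4 (log2 difference -0.87, SE 0.11, adjusted p = 0.00281; GRCm38 chromosome 7, 141263183 to 141266499). Oas2, a sensor of double-stranded RNA, had 6.46, 5 and 4.12 TPM at week 2 and 1.82, 2.17 and 1.21 at week 4 (log2 difference -1.18, SE 0.20, adjusted p = 0.00738). In both every week 4 library lay below week 2, and all 3 week 3 libraries of Oas2, at 10.2, 9.62 and 8.28 TPM, lay above week 2. Ifit1 (log2 difference -0.61, adjusted p = 0.0636), Mx1 (log2 difference -0.47, adjusted p = 0.174) and Usp18 (log2 difference -0.71, adjusted p = 0.0528) did not pass. The 2 rises were Isg20, a nuclease, at log2 0.99 (adjusted p = 0.019, and 0.0595 to 0.071 without week 2 replicate 1 or 2 or week 4 replicate 2 or 3) and Eif2ak2, which encodes the kinase PKR, at 0.78 (adjusted p = 0.0248, and 0.0723 to 0.0863 without week 2 replicate 1 or 2 or week 4 replicate 2 or 3). The count of 11 falls was 6 without week 2 replicate 1 and 7 without week 4 replicate 3.

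Both lists fell in tumor cells between these weeks too: 24 of 30 and 39 of 39 tested members fell in the tumor cell table, with 0 rises (medians -1.63 and -2.16). Of all 14770 genes tested there 17.1% fell and 29.2% rose. Tumor-high genes made up 19 of the 30 and 29 of the 39. Among the members that fell in CD8 T cells, 12 of the interferon gamma list and 9 of the type I list were tumor-high. Without tumor-high genes, 4 genes of the interferon gamma list fell and 0 rose, and 2 type I genes fell and 1 rose. With the tumor share subtracted, 12 members of the interferon gamma list fell and 1 rose, and 6 type I genes fell and 2 rose. The medians of the 2 lists were then -0.50 and -0.19. Igtp, 1.53 times higher in tumor cells, kept a log2 difference of -1.31 (adjusted p = 0.00231) and Gbp2 -1.26 (0.0168). Oas2, 5.94 times higher in tumor cells, was at -0.73 (adjusted p = 0.178). The subtraction rests on epithelial genes, and the tables were scaled separately.

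**Figure D4:**
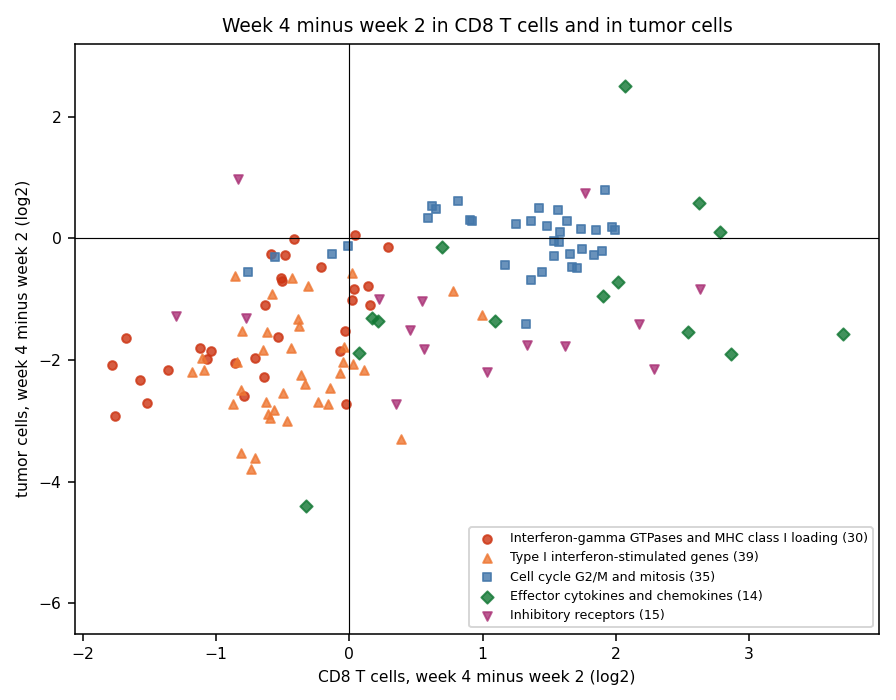
Log2 difference between week 4 and week 2 in CD8 T cells (x axis) and in tumor cells (y axis) for members of 5 gene lists tested in both tables. Both interferon lists lie low on both axes, G2/M genes lie to the right near 0 in tumor cells, and inhibitory receptors lie mostly to the right with lower values in tumor cells.

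Of 35 tested genes of G2/M and mitosis 25 rose and 1 fell (median 1.49), and of 35 genes of G1/S and replication 20 rose and 0 fell (median 0.86). The G1/S count was 8 without week 2 replicate 1, 6 without week 2 replicate 2 and 9 without week 4 replicate 2. It was 3 without tumor-high genes, since 17 of the 20 were tumor-high, 19 with the tumor share subtracted, 11 with no filter and 12 with weeks 2 and 4 only. In tumor cells 2 of the 35 G2/M genes rose and 5 fell (median 0.11). Mki67, the marker of dividing cells, had 27, 21.4 and 22.6 TPM at week 2 and 154, 73 and 77.3 at week 4 (log2 difference 1.97, SE 0.29, adjusted p = 0.00401; GRCm38 chromosome 7, 135689784 to 135716450), with 73.6, 68.6 and 45.3 at week 3. Top2a, the topoisomerase of chromosome segregation, had 43.1, 39.2 and 46.5 TPM at week 2 and 229, 93.5 and 122 at week 4 (log2 difference 1.66, SE 0.30, adjusted p = 0.00783). In both genes week 4 replicate 2 was the highest and no library overlapped week 2.

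Bub1, a kinase of the spindle checkpoint, had 3.29, 4.41 and 4.84 TPM at week 2 and 35.3, 12.6 and 16.3 at week 4 (log2 difference 1.99, SE 0.33, adjusted p = 0.00621). Bub1b, its relative, had 5.8, 6.33 and 7.59 TPM at week 2 and 41.4, 20.9 and 24.1 at week 4 (log2 difference 1.92, SE 0.30, adjusted p = 0.00555). Tk1, thymidine kinase, had 11.3, 11 and 19.6 TPM at week 2 and 69.9, 43.2 and 36.7 at week 4 (log2 difference 1.76, SE 0.30, adjusted p = 0.00715). Cdk1, the mitotic kinase, had 6.74, 8.77 and 17.9 TPM at week 2 and 50.7, 22 and 23.5 at week 4 (log2 difference 1.45, adjusted p = 0.0297), with an adjusted p of 0.0863 to 0.0998 without week 2 replicate 1 or 2 or week 4 replicate 2. Kif23, a motor of cytokinesis, was the 1 member that fell, with 82.2, 73.2 and 75.2 TPM at week 2 and 37.6, 38.5 and 62.2 at week 4 (log2 difference -0.76, adjusted p = 0.0208; adjusted p = 0.0573 to 0.075 without week 2 replicate 1 or 2 or week 4 replicate 2 or 3). Some genes of replication did not pass: Mcm2, of the replicative helicase, at log2 0.86 (adjusted p = 0.0728, or 0.0174 with replicate number as a block), Pcna, the sliding clamp, at 0.40 (0.138), and Ccne1, the cyclin of G1/S entry, at 0.23 (0.274).

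Of the G2/M genes, 32 were tumor-high, and none of the rises was left without tumor-high genes. Their levels in tumor cells were close to those here: Mki67 stood 1.17 times and Top2a 1.24 times higher there. With the tumor share subtracted 25 rose and 1 fell, and Mki67 was at 2.13 (adjusted p = 0.00578). The G2/M count was 12 without week 2 replicate 1 and 13 without week 2 replicate 2, and 11 members passed in all 6 such fits.

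Promoters of Mki67 and Top2a are shown for the cell cycle homology region, TTTGAA, the element through which the DREAM complex is known to hold G2/M genes silent in resting cells. It is printed in capitals, and the stretches, from RefSeq on GRCm38.p6, are chr7:135716451-135716542 and chr11:99024316-99024415, both on the minus strand and printed 5′ to 3′ along the gene.
Mki67: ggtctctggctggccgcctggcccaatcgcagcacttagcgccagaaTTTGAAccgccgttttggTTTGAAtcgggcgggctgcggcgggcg
Top2a: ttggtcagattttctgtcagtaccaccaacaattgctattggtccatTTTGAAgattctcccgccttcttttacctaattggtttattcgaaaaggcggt
In the same window and on both strands, TTTGAA was present in 16 of 22 risen G2/M genes with a promoter entry (72.7%), against 17.9% of all promoters and 14.7% of tested genes. It was present in 1 of 16 risen G1/S genes (6.25%). In the other lists searched, the share holding TTTGAA ran from 0% to 50%, with few genes in each. It was in 0 of 5 risen heat shock chaperones, 5 of 11 fallen genes of the interferon gamma list (45.5%) and 3 of 6 risen cytokine receptor and JAK-STAT genes (50%). The CCAAT box, often found beside it, was in 17 of the 22 (77.3%), against 37.4% of all promoters and 42.3% of tested genes. The AP-1 motif TGANTCA was in 0 of 22, and in 7.81% of all promoters. The list was chosen as G2/M genes, for which a high share of TTTGAA could be foreseen, so the share does not bear on the rise. The share in members that did not rise is not given here.

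Of 17 tested heat shock chaperones 6 rose and 0 fell. Hspa1a and Hspa1b, the inducible and near-identical HSP70 genes, had the largest rises. Hspa1a had 54.1, 54.8 and 85.4 TPM at week 2 and 331, 367 and 469.5 at week 4. Hspa1b had 139.9, 143 and 211 TPM at week 2 and 834, 936 and 1138 at week 4 (log2 differences 2.59 and 2.57, both with adjusted p = 0.00121). At week 3 they stood at 644, 459 and 437 and at 1625, 1090.0 and 1061, which overlaps week 4 (adjusted p = 0.287 and 0.311 for week 4 against week 3). They were 2 of the 6 genes that passed between weeks 2 and 3. The others were Ddit4 and the small nucleolar RNA genes Snord14c, Snord14d and Snord14e, named because the count is small. These Snord14 genes overlap Hspa8, and their reads cannot be told apart from those of the host. By week 4 Hspa1a and Hspa1b were also the 2 chaperones that rose in every fit that left out 1 library (counts of 3 without week 2 replicate 1 or 2 or week 4 replicate 4 and 2 without week 4 replicate 2). Hspa8, the constitutive HSP70, had 1462, 1394 and 1709 TPM at week 2 and 2000.0, 1756 and 2007 at week 4 (log2 difference 0.34, adjusted p = 0.0574).

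Ddit4, which stress and low oxygen induce and which restrains mTORC1, had 48.7, 54.7 and 64.1 TPM at week 2 and 201, 222 and 204 at week 4 (log2 difference 1.89, SE 0.17, adjusted p = 0.00121), with 173, 186 and 119 at week 3. It was tumor-high, and the subtraction left 1.91 (adjusted p = 0.00213). Of 21 hypoxia genes 6 rose (3 without week 2 replicate 1 or week 4 replicate 3) and 1 fell, with a median of 0.44 that was 0.03 after the tumor share was subtracted. All 6 risen genes were tumor-high, and 0 rose without tumor-high genes. With the tumor share subtracted 5 rose and 1 fell. In tumor cells 14 of the 21 rose and 0 fell (median 0.80). Vegfa, the vessel growth factor, had 8.29, 18.3 and 30.3 TPM at week 2 and 48.1, 84.9 and 57 at week 4 (log2 difference 1.82, adjusted p = 0.0153; adjusted p = 0.0543 without week 4 replicate 3).

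Glycolysis genes rose in 7 of 21 tested members and fell in 1. The count of rises was 4 without week 2 replicate 2 or week 4 replicate 3. Tpi1, triose phosphate isomerase, had 99.8, 105 and 174 TPM at week 2 and 459.8, 345 and 260.0 at week 4 (log2 difference 1.49, SE 0.27, adjusted p = 0.00792). Pgk1, phosphoglycerate kinase, had 202, 179 and 262 TPM at week 2 and 496, 391 and 344 at week 4 (log2 difference 0.94, SE 0.17, adjusted p = 0.0079). Both were tumor-high, and the subtraction left 1.65 and 1.00 (adjusted p = 0.00767 and 0.0084). Slc16a1, the lactate transporter MCT1, fell from 90.4, 87.8 and 81.6 to 50.2, 54.6 and 54.5 TPM (log2 difference -0.70, SE 0.11, adjusted p = 0.0054). Ldha (log2 difference 0.35, adjusted p = 0.112), Slc2a1, the glucose transporter GLUT1 (log2 difference -0.10, adjusted p = 0.658), and Hk2, hexokinase 2 (log2 difference 0.98, adjusted p = 0.0639), did not pass.

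The 13 mitochondrially encoded genes rose in 5 and fell in 0 (median 0.69; rises in 2 without week 2 replicate 1 or 2, 1 without week 4 replicate 2 or 3 and 8 without week 4 replicate 4, and in 3 with median-of-ratios scaling or the subtraction), and 1 of them, ND5, passed in every fit that left out 1 library (2065, 2264 and 2232 and 4183, 4214 and 3817 TPM; log2 difference 0.90, SE 0.16, adjusted p = 0.00769). Of 38 nuclear genes of oxidative phosphorylation 3 rose and 1 fell, with rises in 1 without week 2 replicate 1 or 2 or week 4 replicate 2 or 3, 10 without week 2 replicate 3 and 6 without week 4 replicate 4. With all libraries, the 3 rises and 1 fall of the 38 nuclear genes were no larger a share than over all tested genes. Of all tested genes 10.3% rose and 7.18% fell. The 5 rises among the 13 mitochondrially encoded genes were a larger share. All 13 mitochondrial genes were tumor-high. Genes of fatty acid uptake, oxidation and lipid droplets changed in 9 of 25 members, 6 upward (3 without week 4 replicate 2) and 3 downward (0 without week 2 replicate 1 or 2, 5 without week 2 replicate 3 and 1 without week 4 replicate 2). Hilpda, a lipid droplet protein that inhibits lipolysis, had 40.7, 43 and 102 TPM at week 2 and 212, 219 and 185 at week 4 (log2 difference 1.84, SE 0.30, adjusted p = 0.00612). Plin2, a droplet coat protein, had 7.07, 11.2 and 13.5 TPM at week 2 and 26.4, 23 and 19.4 at week 4 (log2 difference 1.08, adjusted p = 0.0164), with an adjusted p of 0.0575 without week 4 replicate 2 and 0.0517 without week 4 replicate 3. Tumor cells held 5.49 times as much. Fabp4, a fatty acid carrier of fat and vessel cells, had 16.9, 40.3 and 10.5 TPM at week 2 and 1.3, 4.7 and 0.365 at week 4 (log2 difference -2.96, adjusted p = 0.0292), with an adjusted p of 0.0653 to 0.102 without week 2 replicate 1 or 2 or week 4 replicate 2 or 4.

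In the list of TGF-beta response and adenosine genes 4 of 17 rose (2 without week 2 replicate 1 or 2 or week 4 replicate 2 or 3) and 1 fell. Nt5e, the ectoenzyme CD73 that makes adenosine, had 102, 77.7 and 109 TPM at week 2 and 318, 348 and 285 at week 4 (log2 difference 1.72, SE 0.17, adjusted p = 0.00121). Ldlrad4, an inhibitor of TGF-beta signalling, had 14.5, 15.7 and 13.1 TPM at week 2 and 37.7, 46.9 and 28.9 at week 4 (log2 difference 1.31, SE 0.19, adjusted p = 0.00387). Both passed with any library left out. Among BCL2 family genes 5 of 25 rose (2 without week 2 replicate 1, 1 without week 2 replicate 2 and 3 without week 4 replicate 2) and 1 fell: Bcl2 is above, and Mcl1, another survival factor, had 609.5, 619.6 and 563 TPM at week 2 and 272, 362 and 477 at week 4 (log2 difference -0.72, adjusted p = 0.0238; adjusted p = 0.0645 to 0.0794 without week 2 replicate 1 or 2 or week 4 replicate 3). Bcl2a1b and Bcl2a1d, near-identical copies, were at log2 1.09 and 1.33 (adjusted p = 0.0205, and 0.0609 to 0.0702 without week 2 replicate 1 or 2 or week 4 replicate 2, for the first and 0.02, and 0.0607 to 0.0707 without week 2 replicate 1 or 2 or week 4 replicate 2, for the second).

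Among the 10 largest rises outside the tumor-high genes, beside those named above, stood Sema6d, a semaphorin that can act in T cell activation, with 8.18, 9.73 and 21 TPM at week 2 and 131, 149.9 and 124 at week 4 (log2 difference 3.39, SE 0.34, adjusted p = 0.00121). LOC105247125 had 6.48, 4.14 and 9.28 TPM at week 2 and 71.7, 86.6 and 47.7 at week 4 (log2 difference 3.21, SE 0.29, adjusted p = 0.00121), and its position was not used here. S100a9, a calcium-binding protein of neutrophils, had 0, 1.08 and 2.35 TPM at week 2 and 31.8, 7.21 and 16.8 at week 4 (log2 difference 3.14, SE 0.53, adjusted p = 0.00673). The precursor Mir7683, at 7.27, 5.73 and 10.5 TPM at week 4, had a value of 0 in every library of week 2. It lies within Slamf7 (GRCm38 chromosome 1, 171641840 to 171641900), which rose as well (log2 difference 1.09, adjusted p = 0.00444), and reads of the precursor and its host cannot be told apart.

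The 5 largest rises among tumor-high genes were Mir6386 within Plscr1 (log2 3.58), Cited4, a transcriptional coregulator (3.07), Lcn2, the iron-scavenging lipocalin (2.79), Spp1, osteopontin (2.78), and Mir3058 within Nudt4 (2.73). Lcn2 had 14.7, 39.7 and 148 TPM at week 2 and 458, 261 and 259.9 at week 4. It was 24.6 times higher in tumor cells, where it rose by 1.93 on the log2 scale. Its adjusted p was 0.024, and 0.0542 to 0.0833 without week 2 replicate 1 or 2 or week 4 replicate 2 or 3; that of Spp1 was 0.028, and 0.0758 to 0.0849 without week 2 replicate 2 or week 4 replicate 2 or 3. The precursor rows again share reads with their hosts.

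The 5 largest falls among tumor-high genes carried marks of other cell types: Fabp4, the mast cell protease Mcpt4 (log2 -2.54), the water channel Aqp1 of vessels (-2.30), the keratin Krt19 (-2.10) and the B cell coactivator Pou2af1 (-1.90). Mcpt4 was at 0.764, 13.7 and 7.54 TPM at week 2 and 0.128, 0 and 0 at week 4, and its adjusted p was 0.0641 to 0.116 without week 2 replicate 2 or 3 or week 4 replicate 2, 3 or 4. For Aqp1 it was 0.0845 to 0.154 without week 2 replicate 2 or 3 or week 4 replicate 2 or 4. For Krt19 it was 0.0638 to 0.103 without week 2 replicate 1 or 2 or week 4 replicate 2, 3 or 4, and for Pou2af1 0.0543 to 0.0591 without week 2 replicate 2 or week 4 replicate 2 or 3. None of the 5 passed in every fit that left out 1 library, and with the tumor share subtracted Aqp1 turned to 1.06 (adjusted p = 0.156).

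Markers of other cells differed among the libraries of 1 week. The summed level of 13 B cell genes was 26.8 to 184 TPM at week 2 and 35.8 to 54.3 at week 4, with 0 of 13 past the threshold, although 6 fell with replicate number as a block. The block also gave falls in 5 fibroblast genes (0 without it) and in 4 neutrophil and mast cell genes (2 without it). Cd79a, a B cell receptor chain, was at 2.56, 36.8 and 17.6 TPM at week 2 and 0.764, 1.16 and 4.28 at week 4. Endothelial genes had 121 to 174 and then 37.6 to 78.7 TPM (14 genes), with 3 of 11 tested fallen (1 without week 2 replicate 2). Macrophage and monocyte genes had 568 to 1162 and then 1062 to 1567 TPM (21 genes), with 2 of 20 tested risen (0 without week 2 replicate 1 or 2 or week 4 replicate 2 or 3). C1qa, a complement chain of macrophages, was at 4.37, 39.1 and 53.6 and 52.9, 44.5 and 36. No marker in these 3 lists was at 0 in all 6 libraries, and their part in the changes was not tested.

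How many genes passed depended on which library was left out. Without week 2 replicate 1 or 2, 679 or 693 genes rose and 270 or 233 fell, and without week 4 replicate 2 or 3, 757 or 812 rose and 385 or 399 fell. Without week 2 replicate 3, 1524 rose and 1573 fell, and without week 4 replicate 4, 1498 rose and 1465 fell. These are the libraries of each week that lay nearest the other week along the first principal component, at -0.11 for week 2 replicate 3 (the others at -0.36 and -0.37) and 0.18 for week 4 replicate 4 (the others at 0.50 and 0.29), with 41.8% of the variance.

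**Figure D5:**
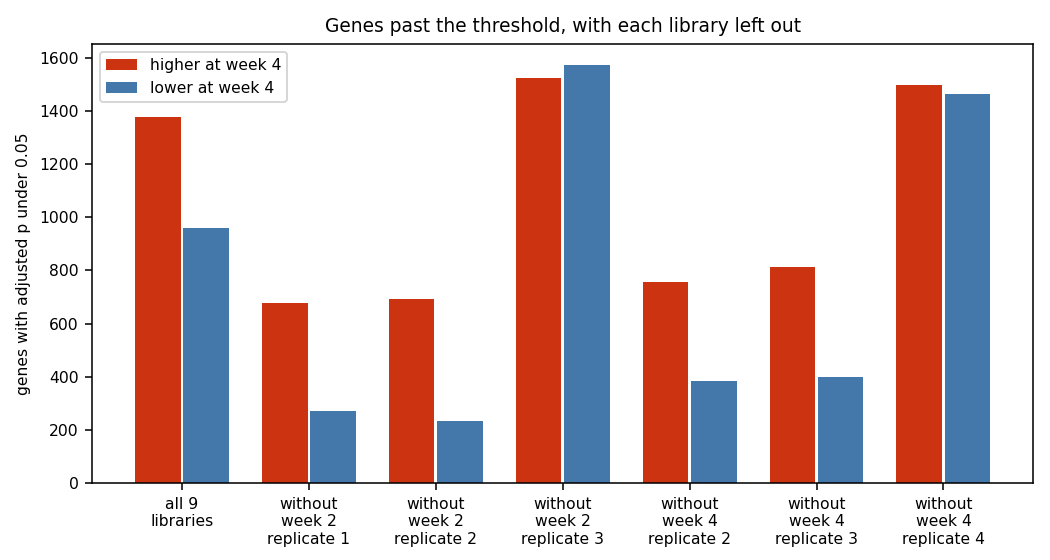
Number of genes past the threshold (y axis) in CD8 T cells of week 4 against week 2, higher in red and lower in blue, with all 9 libraries and with each of the 6 libraries left out. Counts range from 679 to 1524 higher and from 233 to 1573 lower.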

How the data were processed

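RNA-seq of CD8 T cells and of tumor cells gave 1 TPM table each, and the TPM values are as the authors deposited them, for CD8 T cells over weeks 2, 3 and 4 with 3 libraries a week. Per the submitters' processing notes FastQC, Trim Galore and HISAT2 were used, with mm10 among the builds; the read counter and annotation are not given in the sources used here. Of 33681 table rows, those with names turned into dates were left out (33654 remained). Genes with at least 1 TPM in at least 3 of 9 libraries were put on log2(TPM + 1), which understates the change of low genes. One limma model (3.58.1, R 4.3.3, lmFit and eBayes with trend) held all 3 weeks, which then share 1 estimate of the spread. P-values were adjusted over all 13350 genes by the Benjamini-Hochberg method. The code was tested on simulated data.

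Tumor cells were fitted alone in their own table. The tables were scaled separately, so a level set across them (the tumor-high mark, the subtracted share) is a description, and no difference between them was tested. The share taken off was the library's median ratio over 19 epithelial genes times the mean tumor TPM of that week; negative results were set to 0 and the library was rescaled. Low-value steps gave relative depth only, so no counting error could be given.

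Named were the 10 largest rises and falls (no overlap, mean of at least 5 TPM) outside tumor-high genes, 5 each within them, well-known members of each list, and up to 3 changed members of each list in either direction. Members and gene lists were chosen with earlier results of these data known. Alternatives were a pseudocount of 0.1, no filter and one of 5 TPM, median-of-ratios and quantile scaling, array weights, a replicate block, weeks 2 and 4 only, no tumor-high genes, the subtraction, and each library left out. Tables were joined and drawn with Python 3.11.15, pandas 2.3.3, numpy 2.4.6 and matplotlib 3.10.9. Gene positions and promoters come from RefSeq tables on GRCm38.p6 (GRCm38 is the assembly that mm10 names), matched by symbol.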

Additional observations from a re-analysis of the deposited data

Results flagged for a closer look

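For 19 genes of the lists, every CD8 T cell library of week 4 lay on 1 side of all those of week 2 and every tumor cell library on the other side. The difference itself was not tested, because the 2 tables were scaled separately. All 19 were higher in CD8 T cells at week 4 and lower in the tumor cell libraries. Over all genes tested in CD8 T cells, 20.6% had every week 4 library above every week 2 library. Over all genes tested in tumor cells, 17.1% fell and 29.2% rose. The share of all genes that met both rules is not given here, nor is the number of list genes tested in both tables. The count of 19 therefore cannot be set against a background. In those tumor cell libraries the list of T cell receptor complex and CD8 lineage genes fell in 18 of 24 tested members (median -1.75). Its mean summed level there was 425 TPM at week 2 and 187 at week 4. The part of T cells within the tumor cell libraries in these falls was not tested. Log2 differences in CD8 T cells and in tumor cells were 2.29 and -2.14 for Pdcd1, 1.62 and -1.76 for Tigit, 1.33 and -1.75 for Entpd1, 0.55 and -1.01 for Cd226, 2.68 and -1.67 for Tnfrsf9, and 0.63 and -1.77 for Cd69. NK lectin-like receptors had 2.17 and -1.40 (Klrc1), 1.09 and -1.77 (Klrd1) and 1.25 and -1.64 (Klrk1). Effector and signalling genes had 2.54 and -1.53 (Ifng), 1.65 and -1.22 (Fasl), 1.42 and -1.55 (Rgs16) and 1.73 and -2.23 (Irf8). Cytokine receptor genes had 0.97 and -1.81 (Il2ra), 1.15 and -2.19 (Il2rb) and 0.65 and -2.18 (Il18r1), and residency genes had 1.40 and -2.30 (Cxcr6) and 1.22 and -1.10 (Itgae). Cd8a, the lineage gene, had 0.59 and -2.51.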

How the results depend on the processing

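The 1377 higher and 958 lower genes were 2895 and 3015 with array weights and 695 and 824 without tumor-high genes, whose removal moved the median of all genes to -0.11. Lower genes were 561 with no filter, 435 with a replicate block (987 higher) and 391 with weeks 2 and 4 only (965 higher). Leaving out 1 library gave 679 to 1524 higher and 233 to 1573 lower. A pseudocount of 0.1, a filter of 5 TPM, both rescalings and the subtraction kept both counts within 1.5 times. The 13 falls of the stem-like list were 20 with array weights, 1 with no filter, 8 with the block and 0 with weeks 2 and 4 only, and 0 to 18 with 1 library left out. Rises of the cytotoxic list were 13 with array weights and 4 to 10 with 1 library left out; rises of G2/M genes were 0 without tumor-high genes and 12 to 26 with 1 library left out. Falls of the interferon gamma list were 4 without tumor-high genes and 12 to 17 with 1 library left out. Counts of rises in the inhibitory, effector and NK lectin-like lists stayed within 1.5 times in every alternative run. Of 254 named genes, the call was lost in 51 with no filter, 47 with weeks 2 and 4 only, 40 with the block (8 gained), 16 with the subtraction (4 gained), and 65, 72 and 8 without week 2 replicate 1, 2 and 3, and 61, 54 and 12 without week 4 replicate 2, 3 and 4. Array weights gained 34 calls and lost 1. Aqp1 reversed, to 1.06, with the tumor share subtracted. The causes were not tested, except that fewer genes or libraries enter some of these fits. Replicate numbers 2 and 3 are shared between the weeks, and deviations of same-numbered libraries correlated at -0.11 and -0.24. Such values cannot decide whether libraries were paired, because deviations from a mean of 3 libraries depend on one another. No read totals were given, and 3 libraries a week limit the precision.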

Other observations

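Several groups that have no place above were also measured in these libraries. Of 31 genes of fatty acid and sterol synthesis 3 rose (1 without week 2 replicate 1 or 2 or week 4 replicate 2 or 3 and 5 without week 2 replicate 3) and 0 fell. Over all tested genes 10.3% rose and 7.18% fell. Idi1, an enzyme of isoprenoid synthesis, had 9.95, 12.2 and 19.2 TPM at week 2 and 44.2, 30.5 and 27 at week 4 (log2 difference 1.26, SE 0.24, adjusted p = 0.0106), and it passed in every fit that left out 1 library. Fasn, fatty acid synthase, overlapped between weeks (log2 difference -0.36, adjusted p = 0.538). Of 19 genes of amino acid transport and one-carbon metabolism 3 rose (0 without week 2 replicate 1 or 2 or week 4 replicate 2) and 1 fell. Of 44 cytosolic ribosomal protein genes 4 fell (0 without week 2 replicate 1 or week 4 replicate 3 and 1 without week 2 replicate 2 or 3 or week 4 replicate 2) and 0 rose, with a median of -0.13. No ribosomal fall passed with median-of-ratios scaling or with no filter, and 15 did with array weights. Mogat1, a monoacylglycerol acyltransferase, did not reach the filter: it had 0.413, 0.413 and 0.149 TPM at week 2 and 3, 0.611 and 1.28 at week 4, and its mean in tumor cells was 22.7 times as high.

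Capg, an actin-capping protein in the regulatory T cell list, had 62, 56.5 and 93.5 TPM at week 2 and 339, 377 and 197 at week 4 (log2 difference 2.07, SE 0.31, adjusted p = 0.00435) and passed with any library left out. Thy1, a T cell surface protein that fibroblasts share, had 532, 502 and 571 TPM at week 2 and 1157, 1118 and 734 at week 4 (log2 difference 0.88, adjusted p = 0.0133; adjusted p = 0.0513 without week 2 replicate 2). The fibroblast genes proper were uneven among week 2 libraries. Dcn, decorin, was at 16.3, 125 and 54.4 TPM at week 2 and 9.67, 11.7 and 6.81 at week 4 (log2 difference -2.28, adjusted p = 0.0985), and Col1a1, a collagen chain, was at 12.1, 118 and 5.55 and 6.76, 5.07 and 5.93 (log2 difference -1.66, adjusted p = 0.343). Cd74, the MHC class II chaperone of antigen-presenting cells, was at 57.1, 834 and 498 and 290.3, 161 and 229 (log2 difference -0.39, adjusted p = 0.783). In all 3 genes week 2 replicate 2 was the highest of the 6 libraries. The largest log2 difference of any tested gene was that of Gm156, a predicted gene chosen here after its values were seen, at 5.34, 2.73 and 16.1 TPM at week 2 and 231, 148 and 134 at week 4 (log2 difference 4.50).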
